A study of Mus musculus with 11 samples.

Results

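Trophectoderm markers were followed across all libraries of the series as a fixed set of 10 genes: Cdx2, Elf5, Tfap2a, Tfap2c, Gata3, Hand1, Tead4, Krt8, Krt18 and Krt19. They were found by gene symbol, and each of the 10 matched a single entry among the 23284 genes listed. The study sequenced RNA from mouse embryonic stem cells (ESCs), grown on gelatin with serum and leukemia inhibitory factor, to ask how loss of the Tet dioxygenases affects transcripts and their stability. Wild-type (WT) cells were set beside a triple knock-out (TKO) of Tet1, Tet2 and Tet3. Each genotype was sampled untreated (0 h) and 4 h after adding 10 µg/ml α-amanitin, which blocks RNA polymerase II, giving 4 groups of n = 2 ribodepleted libraries. A further group held n = 3 libraries of polyadenylated RNA from untreated WT cells. The knock-out and WT cells were previously generated lines, so genotype and line cannot be told apart. The study describes its α-amanitin RNA-seq as biological duplicates, but the labels do not state whether replicates came from separate cultures. The p-values measure the spread between libraries, part of which may be technical.

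The trophectoderm is the outer epithelium of the blastocyst and gives rise to the trophoblast of the placenta. Its identity is known to start with the transcription factor Tead4, which acts with Yap when Hippo signalling is low and activates Cdx2 and Gata3. Tfap2a and Tfap2c are AP-2 transcription factors of trophoblast, Elf5 sustains trophoblast stem cells, and Hand1 drives giant cell differentiation. Krt8 (type II) pairs with Krt18 or Krt19 (type I) to form the keratin filaments of simple epithelia. None of the samples is trophectoderm, and several of these genes have known roles elsewhere, such as Tfap2c in germ cells and the keratins in other epithelia. Tet enzymes oxidise methylated cytosine, and the Elf5 promoter is a known example of a promoter that is methylated in ESCs and unmethylated in trophoblast stem cells.

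The keratin promoters are shown first, because Krt8 and Krt18 were the most abundant members in TKO cells and lie near each other in the genome. In mm9 (NCBIM37), Krt8 lies on chromosome 15 from 101827142 to 101834773 on the minus strand, and Krt18 lies 23873 bp further on, from 101858647 to 101862457 on the plus strand. The 250 bases before each RefSeq start were taken from a GRCm38.p6 table, and each window matched NCBIM37 at 1 place. The Krt8 and Krt18 windows end at the start of the annotated gene, whereas the Gata3 window lies 11434 bp inside the annotated Gata3 span, before a downstream start. The windows are chr15:101834774-101835023, minus strand, for Krt8, chr15:101858397-101858646, plus strand, for Krt18 and chr2:9800228-9800477, minus strand, for Gata3, the regulator with the widest gap between genotypes apart from Hand1. They are written 5′ to 3′ in lower case, with each CpG, the dinucleotide on which DNA methylation and Tet enzymes act, in capitals.
Krt8: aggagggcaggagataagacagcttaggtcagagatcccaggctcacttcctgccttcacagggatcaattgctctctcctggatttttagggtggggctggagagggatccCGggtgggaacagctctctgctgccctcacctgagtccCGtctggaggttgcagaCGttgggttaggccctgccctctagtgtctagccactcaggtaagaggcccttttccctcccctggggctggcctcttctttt
Krt18: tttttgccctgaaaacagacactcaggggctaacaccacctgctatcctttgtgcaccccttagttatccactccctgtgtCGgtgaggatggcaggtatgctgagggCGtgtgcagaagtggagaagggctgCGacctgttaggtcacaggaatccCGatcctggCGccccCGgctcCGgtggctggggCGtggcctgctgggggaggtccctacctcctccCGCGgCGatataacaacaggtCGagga
Gata3: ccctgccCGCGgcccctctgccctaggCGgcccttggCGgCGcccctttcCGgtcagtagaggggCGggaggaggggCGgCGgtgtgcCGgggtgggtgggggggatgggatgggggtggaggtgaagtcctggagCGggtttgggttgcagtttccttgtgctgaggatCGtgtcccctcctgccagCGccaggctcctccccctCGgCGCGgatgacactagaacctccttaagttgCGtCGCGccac
The Krt8 window held 3 CpGs, the Krt18 window 12 and the Gata3 window 19, against a median of 6 over 32841 windows of 250 bases. Fewer CpGs than in the Krt8 window were found in 29.0% of all windows, and fewer than in the Gata3 window in 80.3%. The promoters of the neighbouring keratins thus differed in CpG content. Of the other members, the Cdx2 window held 13 CpGs, each of the Tfap2a windows 10, and those of Elf5 2 and 8. The Tfap2a windows end 1097 and 28 bp from the start of the annotated gene. The AP-2 motif GCCNNNGGC, searched on both strands with palindromic matches counted once, occurred 3 times in the Gata3 window, once in that of Krt18 and once in that of Cdx2, and at least once in 13.7% of all windows. The GATA motif AGATAA occurred once in the Krt8 window (9.99% of all windows), and the TEAD motif CATTCC once in an Elf5 window (12.6%). These matches describe letters in a window, not bound sites. No such windows were printed for Hand1, Krt19, Tead4 and Tfap2c.

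The members ranged from abundant keratin transcripts to regulators near the limit of detection. Levels are deposited TPM, a share of a library's transcripts corrected for gene length, so genes can be compared with each other within a library. In WT cells at 0 h the order ran from Krt8 (82.9 ± 12.8 TPM, SD, n = 2) and Krt18 (70.1 ± 11.5) through Tfap2c (47.8 ± 2.50), Krt19 (16.2 ± 3.40) and Tead4 (12.6 ± 0.62). The other 5 members lay below 1 TPM in that group, with Cdx2 at 0.738 ± 0.040, Hand1 at 0.278 ± 0.020, Gata3 at 0.218 ± 0.088, Elf5 at 0.124 ± 0.086 and Tfap2a at 0.054 ± 0.016 TPM. The libraries of Krt8 and Krt18 overlapped there, as did those of each neighbour in the order from Hand1 down to Tfap2a. In TKO cells at 0 h, Krt8 (522 ± 8.57 TPM) and Krt18 (487 ± 5.22) stood at places 229 and 251 among all genes. Krt19 (75.0 ± 5.24) had passed Tfap2c (51.8 ± 0.92) there, and Hand1 (3.20 ± 0.15) had passed Cdx2 (1.15 ± 0.13). Gata3 (1.02 ± 0.15) came next. In that group the libraries of Cdx2 and Gata3, and those of Elf5 (0.201 ± 0.094) and Tfap2a (0.132 ± 0.042), overlapped. Summed over the 10 members, WT libraries at 0 h held 213 and 250 TPM, and TKO libraries 1142 and 1168 TPM.

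**Figure D1:**
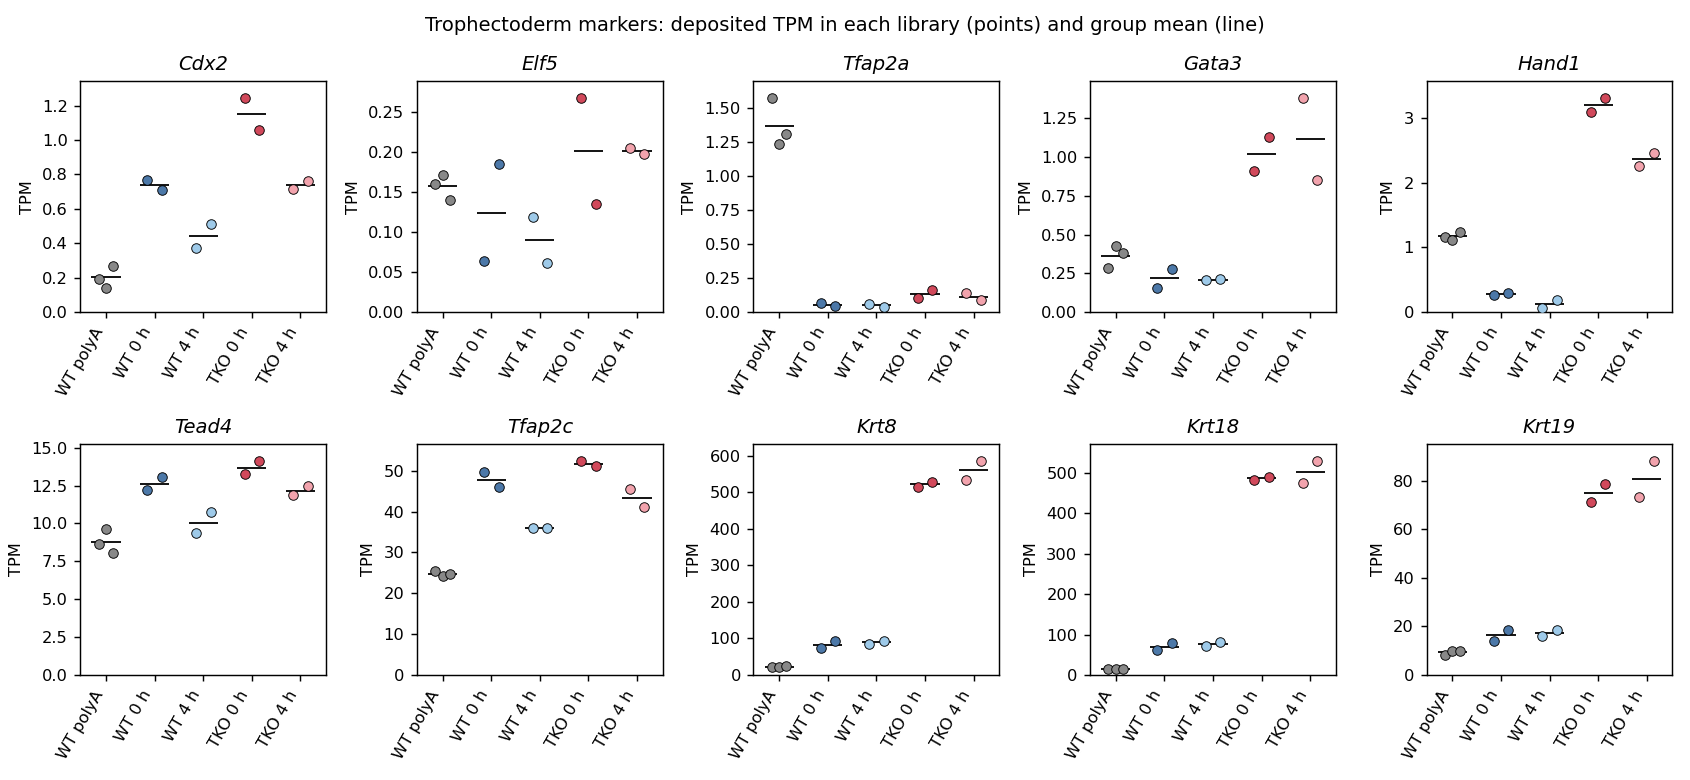
Deposited TPM (y axis, from 0, a separate scale for each gene) of the 10 trophectoderm markers in every library (points), with the group mean as a line, for WT polyA (n = 3) and the ribodepleted groups (n = 2 each). Krt8, Krt18, Krt19, Hand1 and Gata3 are higher in all 4 TKO libraries than in any WT ribodepleted library, whereas Tead4 and Tfap2c lie at like levels in both genotypes.

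The depth behind these values was read from the steps of the TPM values, which correspond to whole reads. The smallest whole numbers that fit came to between 25507806 and 29781275 reads per ribodepleted library and between 72639762 and 82129069 per polyA library. The labels put each ribodepleted sample at 100000000 to 200000000 read pairs, more than the totals of those libraries. All these totals hold only reads assigned to genes and would miss a divisor shared by all values of a gene. Read counts given here are therefore lower limits. Tet1 and Tet2, the check of the genotype labels, fell in TKO cells at 0 h (limma, log2 change -2.11, SE 0.10, adjusted p = 1.45e-06, and -2.64, SE 0.096, adjusted p = 3.25e-07), whereas Tet3 was low in both genotypes (1.47 TPM in WT, 1.57 TPM in TKO). On the second principal component of the ribodepleted libraries, replicate 1 of TKO at 4 h (-2.37) stood apart from replicate 2 (-15.0), so values at 4 h are also given without it. ESC markers were present in every library: at 0 h, Pou5f1, Nanog, Sox2, Zfp42, Klf4 and Esrrb summed to 2203 to 2241 TPM in WT cells and to 1538 to 1551 TPM in TKO cells.

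The markers were first compared between genotypes in untreated cells, as TKO against WT at 0 h. The 3 keratins and Hand1 rose, whereas Tead4 and Tfap2c, the abundant transcription factors of the set, did not pass the test. Differences were fitted with limma on log2(scaled TPM + 1), where scaling divides by a size factor for each library. Of the 10 members, 6 passed the filter of a mean above 1 scaled TPM, and 4 of these 6 were called higher (adjusted p under 0.05 and more than 1.5-fold) and 0 lower. Over all 12467 genes tested, 10.5% were called higher and 5.43% lower. Hand1 passed that filter only through the TKO libraries, where it is high, so the filter favoured its call. The count of 4 is thus no support for a change of the set.

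Krt8 was at 73.8 and 91.9 TPM in the WT libraries at 0 h and at 516 and 528 TPM in the TKO libraries. The log2 change of Krt8 was 2.55 (SE 0.11, adjusted p = 8.61e-07), 5.87-fold on that scale. Both TKO libraries lay far above both WT libraries, and each pair lay close together by comparison. Krt8 is less certain than the others: of the 1756 words of 50 bases in its longest transcript, 54.5% also occur elsewhere in the genome, so reads may have been lost or assigned to copies, and how the counting treated them is not given in the sources used here.

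Krt18, the filament partner of Krt8, was at 62.0 and 78.2 TPM in the WT libraries and at 483 and 490 TPM in the TKO libraries at 0 h. It rose by 2.69 on the log2 scale (SE 0.12, adjusted p = 9.28e-07). Only 0.74% of its 50-base words occur elsewhere, so its value carries little of the doubt attached to Krt8. The groups did not overlap, and the WT libraries differed more from each other than the TKO libraries did.

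Krt19 (chromosome 11, 100002124 to 100009979, minus strand), a type I keratin of simple and glandular epithelia, was at 13.8 and 18.7 TPM in WT and at 71.2 and 78.7 TPM in TKO. It rose by 2.06 on the log2 scale (SE 0.15, adjusted p = 1.16e-05). None of its 50-base words occurs elsewhere (0%), and the groups did not overlap. The rise of Krt19 was thus seen at a locus on another chromosome from Krt8 and Krt18.

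Hand1 (chromosome 11, 57642207 to 57646320, minus strand) was at 0.264 and 0.292 TPM in WT, from 7 and 8 recovered reads, and at 3.09 and 3.31 TPM in TKO, from 88 and 83 reads. Its log2 change was 1.63 (SE 0.11, adjusted p = 7.81e-06), a scale that understates low genes. The ratio of mean scaled TPM was 10.8. A fit of the recovered reads with limma voom, added once the data had been seen, gave a log2 change of 3.34 (SE 0.34, adjusted p = 9.40e-08). The groups did not overlap, and even in TKO cells Hand1 stood only at place 10763 among all genes.

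Tead4 (chromosome 6, 128174306 to 128250841, minus strand) was at 12.2 and 13.1 TPM in the WT and at 13.2 and 14.1 TPM in the TKO libraries. Its log2 change was 0.020, with a 95% interval from -0.17 to 0.21 and an adjusted p of 0.854. Tfap2c (chromosome 2, 172375093 to 172384122, plus strand) was at 49.6 and 46.1 TPM in WT and at 52.4 and 51.1 TPM in TKO. Its log2 change was 0.018, with an interval from -0.091 to 0.13 and an adjusted p of 0.766. On the scaled values the groups overlapped for both genes, and both intervals lay inside the 1.5-fold limit. Of the Tfap2c words, 9.60% occur elsewhere in the genome.

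**Figure D2:**
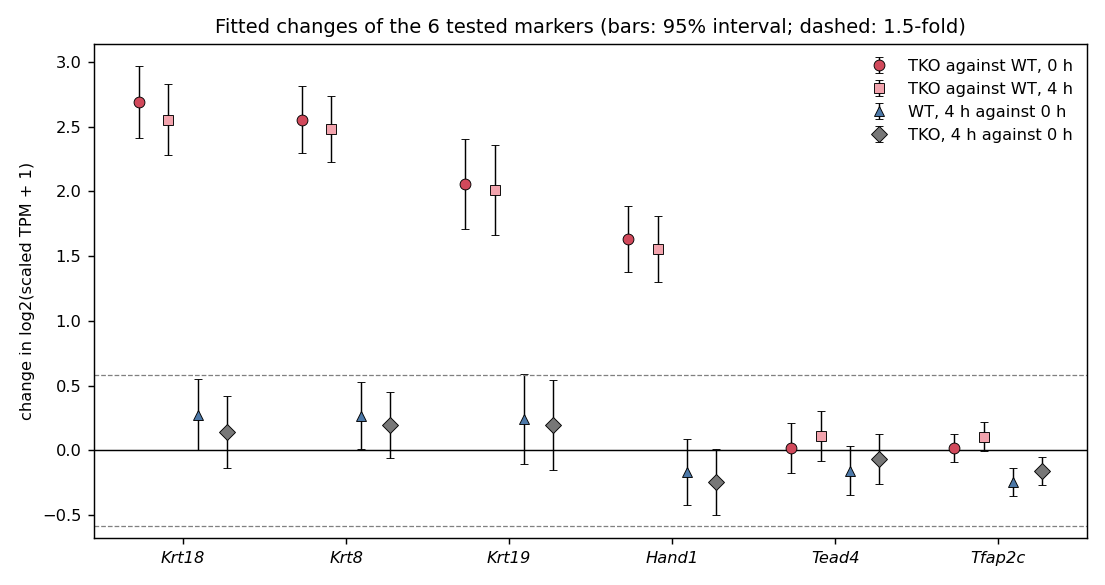
Fitted change in log2(scaled TPM + 1) (y axis) of the 6 tested markers (x axis) in 4 comparisons, with 95% intervals from limma and dashed lines at 1.5-fold. Krt18, Krt8, Krt19 and Hand1 lie above the upper dashed line in TKO against WT at both times, and every change after α-amanitin lies between the dashed lines.

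The other 4 members had too few reads to pass the filter, and their differences come from the alternative without a filter. Gata3 (chromosome 2, 9778705 to 9811661, minus strand) was the clearest of them, at 0.156 and 0.280 TPM in WT (7 and 13 reads) and at 0.913 and 1.13 TPM in TKO (44 and 48 reads) at 0 h. Its log2 change there was 0.66 (SE 0.11, adjusted p = 0.00453), and the ratio of mean scaled TPM was 4.36. The groups did not overlap. The exons of Gata3 overlap those of Gm13256 on the opposite strand and of 9230102O04Rik on the same strand, so part of these reads may belong to them.

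Cdx2 (chromosome 5, 148112381 to 148118846, minus strand), the regulator most used to define trophectoderm, was at 0.766 and 0.710 TPM in WT (23 and 22 reads) and at 1.24 and 1.06 TPM in TKO (40 and 30 reads). Its log2 change was 0.24 (SE 0.074, adjusted p = 0.0437), under the 1.5-fold limit, although the libraries did not overlap. The ratio of mean scaled TPM was 1.46.

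Elf5 (chromosome 2, 103251845 to 103291146, plus strand) was at 0.0637 and 0.185 TPM in WT and at 0.267 and 0.135 TPM in TKO, from 2, 6, 9 and 4 recovered reads. The libraries overlapped, and a difference was not detectable at this depth (log2 change 0.073, SE 0.072, adjusted p = 0.483). Tfap2a (chromosome 13, 40811044 to 40829192, minus strand) was at 0.0656 and 0.0424 TPM in WT and at 0.102 and 0.162 TPM in TKO, from 3, 2, 5 and 7 reads. Its libraries did not overlap, but its change did not pass the test either (log2 change 0.088, SE 0.038, adjusted p = 0.118). The exons of Tfap2a overlap those of Gm16989 on the opposite strand, and the strand setting of the counting is not given in the sources used here. The low members thus gave a clear separation for Gata3 and little beyond a handful of reads for Elf5 and Tfap2a.

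The genotypes were compared again at 4 h, after transcription had been inhibited. Krt18, Krt8, Krt19 and Hand1 were called higher at 4 h too, 4 of the 6 members tested and 0 lower. Of all tested genes, 11% were called higher and 5.82% lower at this time. The same fit and filter, over all ribodepleted libraries, gave the calls at both times. Hand1 passed that filter only through the TKO libraries, so the filter favoured its call here as well. The count of 4 is thus again no support for a change of the set. Krt8 was at 84.8 and 93.3 TPM in WT and at 534 and 587 TPM in TKO (log2 change 2.48, SE 0.11, adjusted p = 9.67e-07). Krt18 was at 71.0 and 80.8 TPM in WT and at 476 and 530 TPM in TKO (log2 change 2.56, SE 0.12, adjusted p = 1.19e-06). Krt19 was at 16.0 and 18.5 TPM in WT and at 73.4 and 88.2 TPM in TKO (log2 change 2.01, SE 0.15, adjusted p = 1.23e-05). No TKO library came near a WT library for any of these keratins.

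Hand1 at 4 h was at 0.0704 and 0.181 TPM in WT, from 2 and 5 reads, and at 2.26 and 2.46 TPM in TKO, from 56 and 63 reads. The log2 change was 1.55 (SE 0.11, adjusted p = 9.48e-06), and the groups did not overlap. Without replicate 1 of TKO at 4 h, the log2 changes were 2.60 for Krt8, 2.68 for Krt18, 2.19 for Krt19 and 1.62 for Hand1. All 4 stayed called. Tead4 (log2 change 0.11, interval -0.083 to 0.30, adjusted p = 0.292) and Tfap2c (0.11, interval -0.0029 to 0.22, adjusted p = 0.0856) did not pass the test.

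Among the low members at 4 h, Gata3 was at 0.208 and 0.214 TPM in WT and at 1.38 and 0.853 TPM in TKO, and changed by 0.74 without a filter (SE 0.11, adjusted p = 0.00253). Its TKO libraries differed from each other by more than the whole WT level. Cdx2 was at 0.374 and 0.513 TPM in WT and at 0.714 and 0.760 TPM in TKO (log2 change 0.20, SE 0.074, adjusted p = 0.0693). Elf5 was at 0.119 and 0.0613 TPM in WT and at 0.205 and 0.198 TPM in TKO, and Tfap2a at 0.0613 and 0.0421 TPM in WT and at 0.141 and 0.0907 TPM in TKO. Neither of the last 2 passed the test (adjusted p = 0.241 and 0.188).

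The α-amanitin comparison asks how a transcript's share of the library moves once synthesis stops. TPM is relative, so a fall shared by all transcripts cannot be seen, and a level that holds says only that a transcript kept pace with the rest. In WT cells 0 of 6 tested members were called, against 2.1% of all tested genes (1.13% without replicate 1 of WT at 4 h). No keratin member passed the test in this fit, and Tfap2c had a small decrease. It went from 49.6 and 46.1 TPM at 0 h to 35.9 and 36.0 TPM at 4 h, with no overlap (log2 change -0.25, SE 0.048, adjusted p = 0.0082), short of 1.5-fold. It was the only member with an adjusted p under 0.05 in this fit, against 37.7% of all tested genes at any fold. With each library left out in turn, the log2 change of Tfap2c lay between -0.27 and -0.22. Whether its adjusted p stayed under 0.05, and the share of all tested genes, turned on single libraries. Without replicate 1 of WT at 4 h the share was 3.04% and the adjusted p of Tfap2c 0.0528, without replicate 1 of WT at 0 h they were 12.2% and 0.0513, and the share lay between 22% and 44.1% with any other library left out. At an unadjusted p under 0.05 there were 3 members, and limma voom on recovered reads called 0 and gave an adjusted p under 0.05 to 3 (Tfap2c, Krt8 and Krt18).

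For the keratins in WT cells the 4 h libraries were level with or above those at 0 h. The log2 changes were 0.27 for Krt8 (SE 0.11, adjusted p = 0.0914), 0.28 for Krt18 (SE 0.12, adjusted p = 0.100) and 0.24 for Krt19 (SE 0.15, adjusted p = 0.233). Tead4 was at 12.2 and 13.1 TPM before and 9.34 and 10.8 TPM after (log2 change -0.16, SE 0.084, adjusted p = 0.172). The log2 change of Hand1 was -0.17 (SE 0.11, adjusted p = 0.270), on at most 8 reads in a library. Cdx2, from 0.766 and 0.710 to 0.374 and 0.513 TPM, had a log2 change of -0.22 without a filter (SE 0.074, adjusted p = 0.0927). Its libraries did not overlap, but at most 23 reads stood behind each value.

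In TKO cells 0 of 6 tested members were called after α-amanitin, against 0.16% of all tested genes. Without replicate 1 of TKO at 4 h, the library that stood apart, that share was 1.15%, and it was between 0% and 0.0642% with any other library left out, while the members stayed at 0. Only 1 member had an unadjusted p under 0.05, and limma voom called 0. That member was Tfap2c, which went from 52.4 and 51.1 TPM to 45.5 and 41.1 TPM (log2 change -0.16, SE 0.048, adjusted p = 0.130). Its libraries did not overlap, and its log2 change was nearer to 0 in TKO than in WT, a difference that did not pass the interaction test below. Hand1 went from 3.09 and 3.31 to 2.26 and 2.46 TPM, also with no overlap (log2 change -0.25, SE 0.11, adjusted p = 0.211). The log2 changes were 0.20 for Krt8 (SE 0.11, adjusted p = 0.296), 0.14 for Krt18 (SE 0.12, adjusted p = 0.476), 0.20 for Krt19 (SE 0.15, adjusted p = 0.432) and -0.067 for Tead4 (SE 0.084, adjusted p = 0.636). Without replicate 1 of TKO at 4 h, the change of Krt8 was 0.31 (adjusted p = 0.119) and that of Krt19 0.38 (adjusted p = 0.144).

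Whether the α-amanitin response differed between genotypes was tested as an interaction. It was called for 0 of 6 members, as for 0% of all tested genes (at most 8 genes with a library left out), with 0 members at an unadjusted p under 0.05 and 938 of all genes. The interaction term was 0.088 for Tfap2c (95% interval -0.066 to 0.24, adjusted p = 0.714) and -0.070 for Krt8 (interval -0.43 to 0.29, adjusted p = 0.897). For Krt18 it was -0.13 (interval -0.52 to 0.26, adjusted p = 0.820), for Krt19 -0.046 (interval -0.54 to 0.45, adjusted p = 0.957) and for Hand1 -0.082 (interval -0.44 to 0.28, adjusted p = 0.880). Tead4 gave 0.089 (interval -0.18 to 0.36, adjusted p = 0.829). The same terms measure how the TKO against WT difference changed between 0 h and 4 h, and limma voom called 0 of 6 as well. On the main scale all 6 intervals lay inside the 1.5-fold limit. With limma voom the interval of Hand1 passed that limit (term 0.66, 95% interval -0.48 to 1.8), so a difference for Hand1 remains unresolved.

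Within the keratin family the rise was not general. Besides Krt8, Krt18 and Krt19, 49 other keratins were listed, of which 6 were tested and 9 were at 0 in every library. At 0 h in TKO against WT, 4 of those 6 were called higher and 2 lower, against 10.5% and 5.43% of all tested genes. Krt7, the type II keratin of simple and glandular epithelia and also of trophoblast, was at 1.71 and 2.71 TPM in WT and at 30.9 and 34.5 TPM in TKO (log2 change 3.31, SE 0.15, adjusted p = 8.72e-07). Krt20 (1.26, SE 0.13, adjusted p = 5.71e-05), Krt16 (0.86, SE 0.12, adjusted p = 0.000364) and Krt14 (0.68, SE 0.15, adjusted p = 0.00409) also rose, each from under 1 TPM. Krt20, Krt16 and Krt14 passed the filter only through the TKO libraries, so the filter favoured their calls, which are no support for a rise.

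Krt17 and Krt42 fell. At 0 h, Krt17 stood at 55.5 ± 0.63 TPM in WT cells and at 16.1 ± 1.19 TPM in TKO cells (SD, n = 2, log2 change -1.81, SE 0.077, adjusted p = 6.87e-07). Krt42 was at 109 ± 1.23 and 54.2 ± 1.75 TPM (log2 change -1.09, SE 0.088, adjusted p = 1.81e-05). Krt17 and Krt42 lie on chromosome 11 within 200000 bp of Krt19, which rose. Krt8, Krt18 and Krt19 together made up 46.6% and 52.4% of all keratin TPM in the WT libraries at 0 h and 90.7% and 90.3% in the TKO libraries.

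Among the keratin members alone, type II Krt8 and type I Krt18 and Krt19 kept a near constant balance. Krt7, which rose in TKO cells, and Krt17 and Krt42, which fell, are left out. The ratio is therefore not the balance of all keratins. Krt8 divided by the sum of Krt18 and Krt19, in TPM, was 0.973 and 0.949 in WT at 0 h, 0.974 and 0.939 in WT at 4 h, 0.932 and 0.929 in TKO at 0 h and 0.973 and 0.949 in TKO at 4 h. The polyA libraries gave 0.955, 0.904 and 0.926, so all 11 libraries lay between 0.904 and 0.974 while the summed level moved from 43.1 to 1205 TPM. Krt8 over Krt18 alone ranged more, from 1.07 in a TKO library at 0 h to 1.53 in a polyA library. These ratios rest on the uncertain value of Krt8 and are given with no test.

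**Figure D3:**
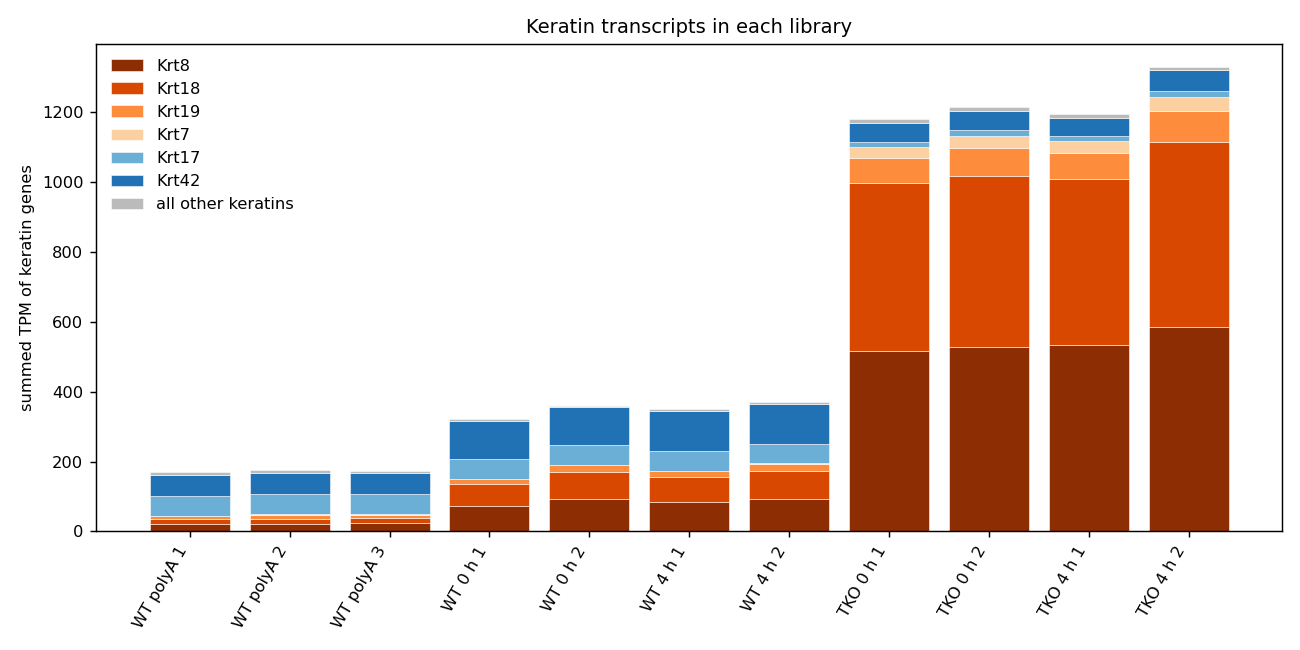
Summed TPM of all keratin genes in each library (y axis, from 0), stacked by gene, for the WT polyA and ribodepleted libraries (x axis, group and replicate number). Krt8, Krt18 and Krt19 make up most of the keratin TPM in the TKO libraries, where Krt17 and Krt42 are smaller than in the WT ribodepleted libraries.

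Few genes next to the keratin members could be tested, and they were called in both directions. Within 200000 bp of Krt8 and Krt18, 16 other genes were listed, 8 were tested, and 1 was called higher and 2 lower in TKO at 0 h. The gene called higher was Igfbp6 (0.623 TPM in WT and 4.23 TPM in TKO, log2 change 1.62, adjusted p = 6.03e-05), named after its values were seen, and those called lower were Csad and Itgb7. Igfbp6 passed the filter only through the TKO libraries, so the filter favoured its call, which is no support for a rise. Around Krt19, 20 other genes were listed and 6 tested, of which Krt14 and Krt16 were called higher and Krt17, Krt42 and Hap1 lower. Of all tested genes, 10.5% were called higher and 5.43% lower, and a departure of the neighbours from these shares was not tested.

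Profiles most like those of the called members were sought over the 8 ribodepleted libraries, by the root mean square difference of log2(scaled TPM + 1) after centring each gene. The gene nearest to Krt8 was Krt18, and the gene nearest to Krt18 was Krt8, at a difference of 0.0575. For Krt8 the next were 3830417A13Rik (0.0833) and Calcoco2 (0.0982), which were also the next for Krt18 (0.0891 and 0.121). Krt19 was at place 16 for Krt8 and 21 for Krt18. The nearest to Krt19 were Gsn (0.0905), Cited1 (0.0975) and Slc25a24 (0.123), and those nearest to Hand1 were Kirrel (0.0893), Pdgfb (0.0917) and Tcstv3 (0.107). Tead4 was at place 4716 and Tfap2c at place 4800 for Hand1, and both lay further still for the keratins.

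The wider trophoblast programme was read from 3 lists, chosen with results of these data known. Of 29 other trophoblast genes listed, 19 were tested, and 9 were called higher and 2 lower in TKO at 0 h. Of all tested genes, 10.5% were called higher and 5.43% lower. The median log2 change of the list was 0.43, against -0.019 for all tested genes. The largest rises were those of Nrk, a kinase gene of the spongiotrophoblast (log2 change 2.95, SE 0.083), Ascl2, a transcription factor of the ectoplacental cone (2.15, SE 0.12), and Gcm1, a transcription factor of the labyrinth (1.42, SE 0.13). Bmp4 (-1.96, SE 0.071) and Klf5 (-0.61, SE 0.10) fell. Genes called in either direction included some well expressed in WT ESCs at 0 h, such as Peg10 (70.2 TPM) among the rises and Klf5 (81.4 TPM) among the falls. At 4 h, 9 were called higher and 2 lower, against 11% and 5.82% of all tested genes. Gcm1 and Mmp9, 2 of these 9 at both times, passed the filter only through the TKO libraries. The filter thus favoured their calls, which are no support for a rise. Prl3b1 and Ctsq, both placental products, named after their values were seen, were listed at 0 in every ribodepleted library.

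The epithelium list held adhesion, tight junction and transport genes of the trophectoderm. Of 21 listed, 19 were tested, and 9 were called higher and 1 lower at 0 h (median 0.32), as at 4 h, against 10.5% higher and 5.43% lower of all tested genes at 0 h. Dsp (1.96, SE 0.060) and Dsc2 (1.48, SE 0.085), components of desmosomes, to which keratin filaments attach, and Cldn7 (1.17, SE 0.050), a tight junction protein, rose most. Atp1b1, a subunit of the sodium pump, fell (-0.67, SE 0.053).

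All 17 genes of the Hippo and TEAD list were tested, and 7 were called higher and 0 lower at 0 h (median 0.41), and 8 and 0 at 4 h, against 10.5% of all tested genes called higher at 0 h and 11% at 4 h. The largest rises were those of Amot (1.61, SE 0.071) and Amotl1 (0.96, SE 0.059), angiomotins that hold Yap outside the nucleus, and Wwtr1 (0.96, SE 0.060), which encodes the coactivator Taz. Tead4 itself, described above, did not pass the test.

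Other cell types whose markers could stand behind keratin expression were read as whole lists at 0 h. In bulk RNA, more cells of a type and more RNA per cell cannot be told apart. Of 6 ESC markers tested, 3 were called lower in TKO (Zfp42, log2 change -2.08, SE 0.067, Klf4, -0.97, SE 0.12, and Esrrb, -0.74, SE 0.041) and 0 higher. The 10 markers of primitive and visceral endoderm, a tissue rich in Krt8 and Krt18, summed to 5.63 to 5.84 TPM in WT. In TKO they summed to 4.60 to 5.36 TPM, with 1 of 2 tested genes called lower (Gata4, -0.61, SE 0.10). Hnf4a and Ttr were at 0 in both TKO libraries, and Ttr and Afp at 0 in both WT libraries. The 8 fibroblast markers summed to 10.2 to 10.7 TPM in WT and 15.2 to 16.7 TPM in TKO, with Col1a2 called higher (1.18, SE 0.10) of 5 tested and Lum at 0 in both WT libraries. The 7 mesoderm and amnion markers listed summed to 5.34 to 6.16 TPM in WT and 7.04 to 7.81 TPM in TKO, with Wnt3 called higher (1.10, SE 0.12) of 3 tested and no marker at 0 in either group. Gata4 passed the filter only through the WT libraries and Wnt3 only through the TKO libraries. The filter thus favoured both calls, which are no support for a change of these lists.

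The 8 surface ectoderm and neural crest markers summed to 17.9 to 22.2 TPM in WT and 16.6 to 16.7 TPM in TKO, with Krt14 called higher of 2 tested and Krt5, the partner of Krt14 in stratified epithelia, at 0 in both WT libraries. The 7 germ cell markers, relevant to Tfap2c, summed to 192 TPM in both WT libraries and to 222 and 226 TPM in TKO, with Ddx4 (1.05, SE 0.051) and Dazl (0.92, SE 0.10) called higher and Nanos3 (-0.90, SE 0.10) and Dnd1 (-0.84, SE 0.070) lower of 7 tested. The median log2 change was -0.54 for the ESC list, -0.071 for the endoderm, 0.25 for the fibroblast, -0.29 for the mesoderm, 0.085 for the surface ectoderm and 0.033 for the germ cell list. After quantile normalisation the medians of the surface ectoderm and germ cell lists turned to -0.042 and -0.029, and those of the endoderm, fibroblast and mesoderm lists moved to -0.26, 0.10 and -0.47. With deposited TPM they were 0.16, 0.12, -0.017, 0.33 and -0.23 in the same order. The part of the fibroblast, mesoderm and ESC shifts in the keratin result was not tested.

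**Figure D4:**
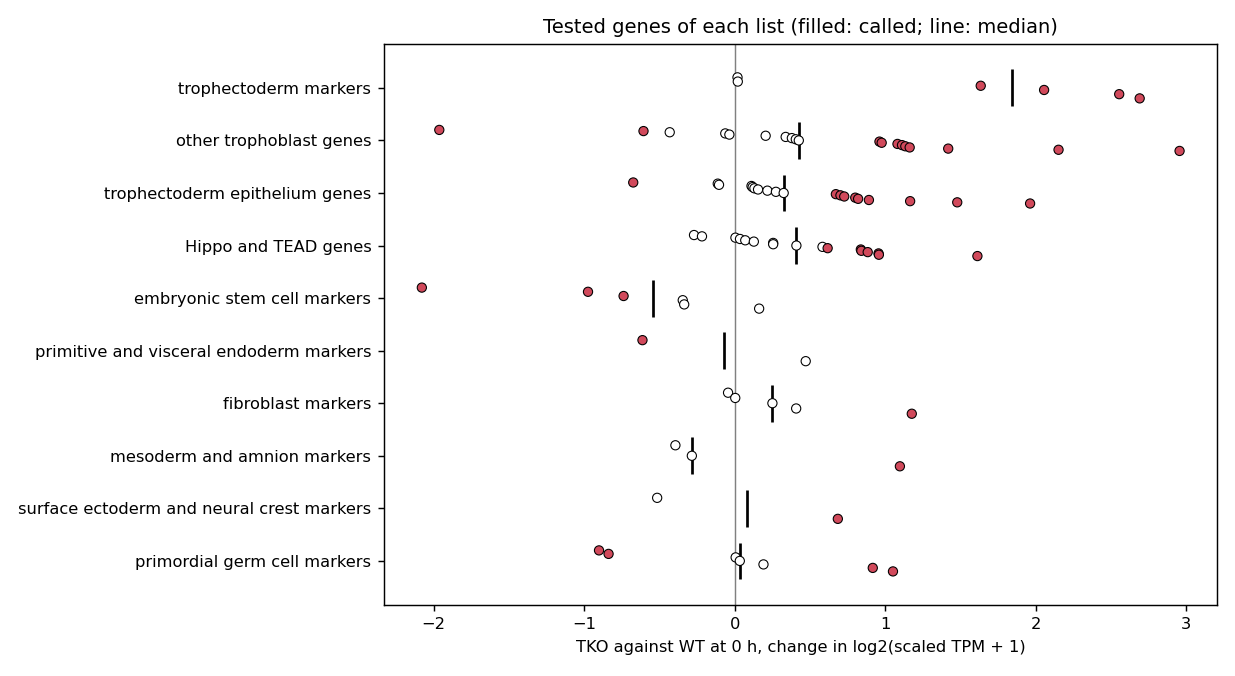
Change in log2(scaled TPM + 1) in TKO against WT at 0 h (x axis) of each tested gene (points, filled where called) in the trophectoderm marker set and 9 other lists (y axis), with the list median as a line. Trophectoderm markers split into 4 genes above 1.6 and 2 genes at 0.02, and genes of the trophoblast, epithelium and Hippo lists lie mostly to the right of 0.

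The polyA libraries of WT cells allow a comparison of the same markers in a second RNA preparation. RNA selection and sequencing experiment differ together between these libraries and the ribodepleted WT libraries at 0 h, so which of them a difference belongs to cannot be told apart, and this contrast shares the WT libraries at 0 h with the genotype contrast. The keratins and Tfap2c were lower in polyA RNA. In a separate fit of these 5 libraries, 5 of the 10 members were tested, and 4 were called lower and 0 higher, against 16.4% and 18.7% of 12478 tested genes.

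Krt18 was at 13.7, 14.6 and 15.2 TPM in the polyA libraries, against 62.0 and 78.2 TPM in the ribodepleted ones (log2 change -2.29, SE 0.10, adjusted p = 1.42e-07). Krt8 was at 21.0, 22.0 and 23.1 TPM, against 73.8 and 91.9 TPM (log2 change -1.96, SE 0.097, adjusted p = 2.77e-07). Tfap2c was at 25.4, 24.3 and 24.6 TPM, against 49.6 and 46.1 TPM (log2 change -1.02, SE 0.043, adjusted p = 1.09e-07). In all 3 cases the groups were separate and the polyA libraries lay close together. Krt19 was at 8.31, 9.74 and 9.84 TPM, against 13.8 and 18.7 TPM (log2 change -0.83, SE 0.13, adjusted p = 0.000303). Tead4 was at 8.63, 9.62 and 8.02 TPM, against 12.2 and 13.1 TPM, and its log2 change of -0.58 (SE 0.075, adjusted p = 0.000103) fell just short of the 1.5-fold limit.

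The low members were not all lower in polyA RNA. Tfap2a was at 1.58, 1.24 and 1.31 TPM, from 186, 147 and 177 reads, against 0.0656 and 0.0424 TPM from 3 and 2 reads in the ribodepleted WT libraries. Without a filter its log2 change was 1.15 (SE 0.071, adjusted p = 6.18e-05), and its overlap with Gm16989 applies here as well. Hand1 was at 1.17, 1.12 and 1.24 TPM, against 0.264 and 0.292 TPM (log2 change 0.74 without a filter, SE 0.049, adjusted p = 7.84e-05). The polyA level of Hand1 in WT cells thus lay above that of every WT ribodepleted library and below that of every TKO library. The TKO libraries are all ribodepleted, so the second of these sets unlike preparations side by side and cannot rank the genotypes. Cdx2 was at 0.194, 0.141 and 0.270 TPM, against 0.766 and 0.710 TPM (log2 change -0.56, SE 0.053, adjusted p = 0.000308), short of 1.5-fold on that scale. Gata3 (0.284, 0.428 and 0.383 TPM) and Elf5 (0.160, 0.172 and 0.140 TPM) did not pass the test (adjusted p = 0.108 and 0.623), and their libraries overlapped those of the ribodepleted group.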

How the data were processed

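RNA-seq of 11 libraries in 5 groups was analysed. The authors removed low-complexity reads and ribosomal and transfer RNA (AfterQC, Bowtie2), trimmed with Trimmomatic, aligned with STAR to mm9 (RefSeq), counted with HTSeq and deposited TPM per gene. Versions, the strand setting and the handling of reads with several matches are not given in the sources used here. Groups followed the sample titles. The members and gene lists were chosen with earlier results of these data known.

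TPM was divided by median-of-ratios size factors, and log2(scaled TPM + 1) of genes with a mean above 1 entered lmFit and eBayes with a trend (limma 3.58.1, R 4.3.3). The 8 ribodepleted libraries in 4 groups (12467 genes, 4 residual degrees of freedom) and the 5 untreated WT libraries of both RNA selections (12478 genes) were fitted apart. Genes were called at a two-sided Benjamini-Hochberg adjusted p under 0.05 over all tested genes and more than 1.5-fold, the limits that the authors applied to raw counts with DESeq2. The script was tested on simulated data.

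Whole reads were recovered for 100% of genes above 0 in 2 or more libraries (tolerance 0.01 reads), up to a divisor common to a gene's libraries. Each pair of replicates differed beyond sampling noise (chi-square over degrees of freedom at least 1.53). Same-numbered libraries correlated between -0.044 and 0.12 in their deviations from group means. Over all tested genes the numbers thus do not pair them, and the replicate block was an alternative only. Named genes were all members, the Tet genes, the nearest profiles, keratins above a mean of 1 scaled TPM, and the 3 largest called rises and falls of each list. Other alternatives were the scaling, pseudocount, filter, variance trend, fold limit, samples fitted, each library left out, and limma voom on recovered reads, added after the data were seen. Positions and 50-base words came from NCBIM37 with GENCODE M1, where Tfap2a and Tfap2c are Tcfap2a and Tcfap2c. Promoters came from RefSeq.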

Additional observations from a re-analysis of the deposited data

How the results depend on the processing

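The number of members called in TKO against WT lay between 3 and 5 at 0 h and at 4 h under every alternative. It was 3 where a filter of 5 TPM left Hand1 out and, at 4 h, with a pseudocount of 5 TPM (Hand1 0.51), and 5 without a filter, which added Gata3. Krt8, Krt18 and Krt19 stayed called in every setting. Leaving out each library in turn gave 4 called in TKO against WT at 0 h and at 4 h, 0 after α-amanitin and for the interaction, and 4 to 6 in polyA against ribodepleted RNA. Blocked on the replicate number, the counts stayed at 4, 4, 0, 0, 0 and 4, so the block changed no call. In WT cells after α-amanitin it did bring Krt8, Krt18 and Krt19 to an adjusted p under 0.05, short of 1.5-fold. Over all tested genes the numbers do not pair the libraries. For these keratins, however, replicate 2 lay above replicate 1 in TPM in each ribodepleted group. Without the fold limit, 1 member (Tfap2c) was called lower in WT cells at 4 h. Deposited TPM without size factors moved the median change of all tested genes to 0.14 in TKO against WT at 4 h and to -0.11 in WT at 4 h against 0 h.

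Signs turned only for changes that did not pass the test, and the cause was not tested. In TKO against WT at 0 h, Tfap2c was at -0.016 without a filter and between -0.013 and 0.038 with a library left out. Tead4 was there at -0.038 after quantile normalisation, at -0.012 without a filter and between -0.059 and 0.087 with a library left out, and in TKO at 4 h against 0 h between -0.14 and 0.0071. The interaction term of Hand1 was 0.37 with a pseudocount of 0.1 TPM and 0.66 with limma voom. That of Krt19 was 0.0085 with deposited TPM. With a library left out, the term lay between -0.25 and 0.12 for Krt8, between -0.33 and 0.061 for Krt18 and between -0.27 and 0.18 for Krt19. In polyA against ribodepleted RNA, Tead4 passed the 1.5-fold limit under 4 alternatives. Depth limits Elf5 and Tfap2a, with at most 9 and 7 recovered reads in a ribodepleted library, and Cdx2, Gata3 and WT Hand1 to a lesser degree. With n = 2 and relative values, small changes of the keratins after α-amanitin cannot be resolved, and in WT cells their adjusted p turned on the replicate block. A library left alone in its group was assumed to vary like the others.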
